A study of Populus ussuriensis with 20 samples.

Results

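Transcripts of 8 genes for the late methylation and reduction steps of monolignol synthesis were followed in the rooting stem base of Populus ussuriensis (Ussuri poplar). They were chosen by identifier and were all found among the 34699 genes of the deposited table: CCoAOMT1 (Potri.009G099800), CCoAOMT2 (Potri.001G304800), CCoAOMT3 (Potri.008G136600), CCR2 (Potri.003G181400), CAld5H1 (Potri.005G117500), CAld5H2 (Potri.007G016400), COMT2 (Potri.012G006400) and CAD1 (Potri.009G095800). The table holds identifiers only. These are locus names of Populus trichocarpa (black cottonwood), and the enzyme names are those used for that species. Cuttings that had formed root primordia on solid medium were moved to liquid medium whose phosphate source, KH2PO4, stood at 10 or 200 µM. Total RNA of the basal stem ends, primordia and surrounding tissue together, was sequenced 2, 4, 8, 12 and 24 h after the move, giving 10 groups (phosphate by time) of 2 libraries. No group was left on the original medium, so each comparison is between phosphate levels or between times. All cuttings shared the species, the rooting period and the transfer.

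Monolignols are the alcohols that plants polymerize into lignin, the stiffening polymer of wood and water-conducting cells. In the pathway as known from Populus and other angiosperms, CCoAOMT adds the methyl group to caffeoyl-CoA, CCR reduces the CoA ester to an aldehyde, and CAD reduces the aldehyde to the alcohol. CAld5H acts on the branch that leads from guaiacyl to syringyl units, which carry a further methoxyl group. A stem base that forms roots holds vascular tissue in which such enzymes are used.

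Expression was given as FPKM, fragments scaled to gene length and to the size of the library, so levels can be compared between genes. Library totals, worked out from the steps between low FPKM values, lay between 14053677 and 15764764 fragments. All 8 genes passed the filter on low values (at least 1 FPKM in at least 2 libraries, 24934 genes). Each had between 240 and 11521 fragments in every library. Over all tested genes, replicates differed by at least 4.15 times the counting variance, so no pair was the same library deposited again. It is not stated whether libraries of a group came from separate plants, so the p-values measure the spread between these libraries, which may be technical. At 8 h and 10 µM the replicates stood further apart than those of any other group (SD of their log2 differences over genes 0.430, against 0.229 to 0.395 elsewhere). Calls of variation with time and mean phosphate differences are therefore also given without the 4 libraries at 8 h.

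The 8 transcripts were abundant and kept much the same order of level. Over the 20 libraries CCoAOMT2 averaged 331 ± 53.4 FPKM (SD, n = 20) and COMT2, a methyltransferase of the syringyl branch, 305 ± 44.1 FPKM. CAD1, the cinnamyl alcohol dehydrogenase, averaged 180 ± 16.3 FPKM, CCR2, the cinnamoyl-CoA reductase, 175 ± 21.6 FPKM and CCoAOMT1 138 ± 19.3 FPKM. The coniferaldehyde 5-hydroxylase genes were lower, CAld5H1 at 45.2 ± 6.51 FPKM and CAld5H2 at 29.3 ± 7.54 FPKM, and CCoAOMT3 stood at 29 ± 10.4 FPKM. These means placed the least abundant, CCoAOMT3, above 82.1% of all tested genes and CCoAOMT2 above 99.1%. In this order 3 neighbouring pairs were not separated: CCoAOMT2 exceeded COMT2 in 14 of 20 libraries, CAD1 exceeded CCR2 in 12, and CAld5H2 exceeded CCoAOMT3 in 11. The other 4 neighbouring pairs kept their order in all 20 libraries.

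**Figure D1:**
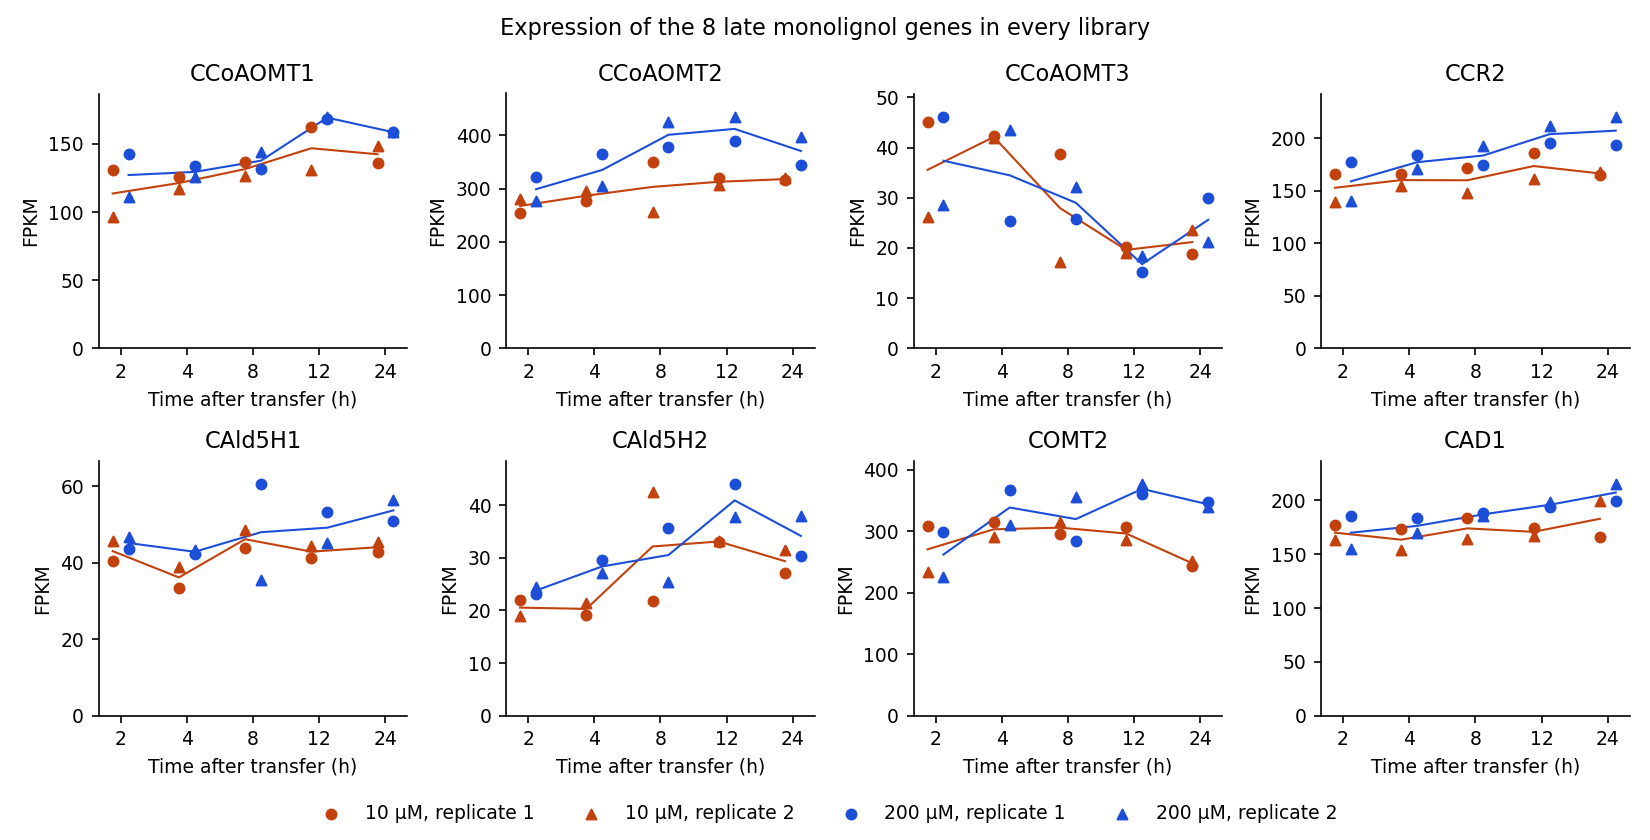
FPKM (linear axis from 0) of each of the 8 genes against time after transfer in h (times evenly spaced), with 1 point per library, circles for replicate 1 and triangles for replicate 2, orange for 10 µM and blue for 200 µM KH2PO4; lines join group means (n = 2). CCoAOMT3 was lower and CAld5H2 higher at 12 h than at 4 h at both phosphate levels, and the blue points of most genes lie above the orange ones at 12 and 24 h.

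Transcripts for the first methylation step came mainly from CCoAOMT2. Of the summed FPKM of the 3 CCoAOMT transcripts, it made up 59.2 to 70.7% in the single libraries, CCoAOMT1 24.0 to 32.4%, and CCoAOMT3 2.65 to 10.45%. CCoAOMT3 thus had the smallest share throughout, and its share moved most relative to its size. It was 4.84 to 9.53% in the 4 libraries at 4 h and 2.65 to 4.18% in the 4 at 12 h.

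Between 4 and 12 h CCoAOMT3 fell while CAld5H2 rose, each in every library of both phosphate levels. At 10 µM CCoAOMT3 measured 42.4 and 41.9 FPKM at 4 h and 20.2 and 19.1 FPKM at 12 h. At 200 µM it measured 25.4 and 43.6 FPKM at 4 h and 15.2 and 18.4 FPKM at 12 h. All 4 libraries at 12 h lay below all 4 at 4 h, as they did for 9.45% of tested genes. The log2 change, averaged over phosphate levels, was -1.01 ± 0.25 (SE), to 0.497 of the level at 4 h (limma, Benjamini-Hochberg adjusted p = 0.0273).

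CAld5H2, a cytochrome P450 enzyme of the syringyl branch, measured 19.2 and 21.5 FPKM at 4 h and 33.1 and 33.2 FPKM at 12 h at 10 µM. At 200 µM it measured 29.6 and 27.1 FPKM at 4 h and 44.0 and 37.8 FPKM at 12 h. Every library at 12 h exceeded every library at 4 h, which held for 9.97% of tested genes. The log2 change was 0.60 ± 0.16 (SE), a 1.51-fold rise (limma, adjusted p = 0.0416). Of all tested genes, 7.18% passed the threshold between these times (3.18% higher, 4.01% lower), against 2 of the 8 genes described here. Both calls were close to the threshold. CCoAOMT3 missed it when any 1 of 7 libraries was left out (adjusted p up to 0.133), and CAld5H2 when any 1 of 10 was (up to 0.146), with log2 changes of -1.20 to -0.82 and 0.54 to 0.65. The libraries concerned were 7 of the 8 at 4 and 12 h (all but replicate 1 at 200 µM and 4 h) for CCoAOMT3. For CAld5H2 they were all 8 and both at 10 µM and 24 h.

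The other 6 genes did not pass between 4 and 12 h. CCoAOMT1 was the nearest: its 4 libraries lay at 117 to 134 FPKM at 4 h and 131 to 170.1 FPKM at 12 h, ranges that overlap slightly. Its log2 change was 0.33 ± 0.10 (SE), with an adjusted p of 0.073 in limma. It passed in a limma fit on the 8 libraries of these times alone (adjusted p = 0.0252). In that fit 3459 of all tested genes passed, against 1791 in the fit reported. CCoAOMT2, CCR2, CAld5H1, COMT2 and CAD1 had log2 changes of 0.05 to 0.22 with adjusted p from 0.233 to 0.84. COMT2 and CAD1, which act at the end of the pathway, had 95% intervals from -0.19 to 0.28 and from -0.07 to 0.28 for this change.

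**Figure D2:**
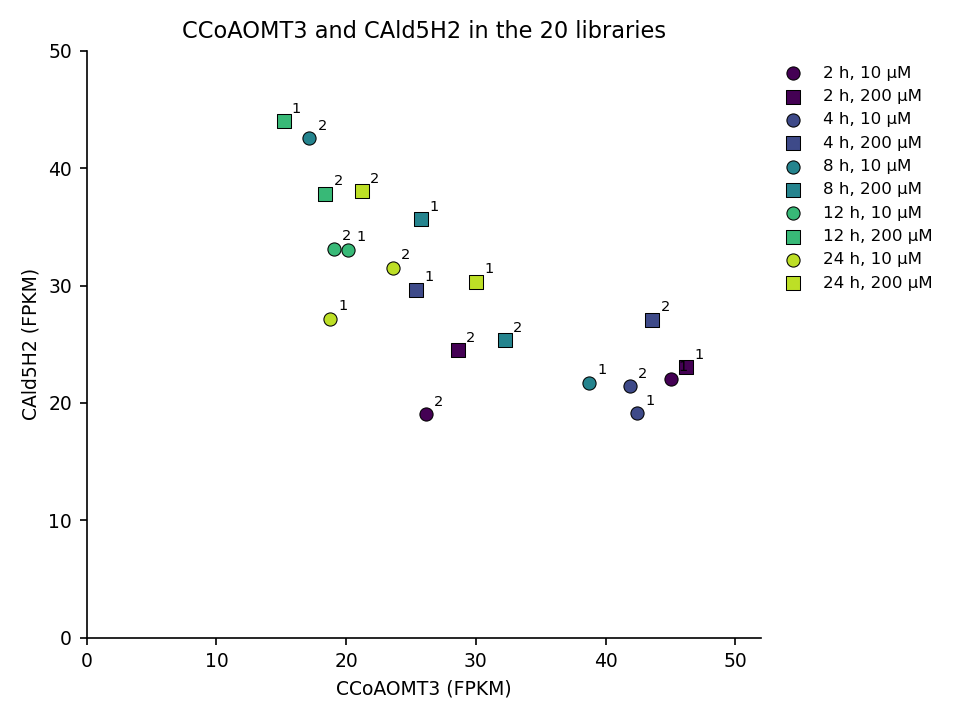
CAld5H2 against CCoAOMT3, both in FPKM on linear axes from 0, with 1 point per library, colours for time, circles for 10 µM and squares for 200 µM KH2PO4, and the replicate number beside each point. The 4 libraries at 12 h lie at 15.2 to 20.2 FPKM of CCoAOMT3 and 33.1 to 44.0 FPKM of CAld5H2, and replicate 2 at 10 µM and 8 h lies among them.

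At 8 h and 10 µM the replicates differed most in these same genes. Replicate 1 held 38.7 FPKM of CCoAOMT3 and 21.7 FPKM of CAld5H2, within the ranges of the 4 libraries at 4 h. Replicate 2 held 17.2 and 42.6 FPKM, within the ranges at 12 h. Replicate 2 at 2 h had 26.1 (10 µM) and 28.6 FPKM (200 µM) of CCoAOMT3, against 45.0 and 46.2 FPKM in replicate 1, and was also lower in COMT2 (233 and 226 against 308 and 298 FPKM). Over all tested genes, libraries at 2 h with the same number deviated together (r across genes 0.504), which was not so at the other times (-0.238 to 0.075). The part of these single libraries in the results was not tested beyond leaving each out.

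Over all 5 times, the same 2 genes varied with time in limma's F test on the mean of both phosphate levels. The Benjamini-Hochberg adjusted p was 0.0354 for CAld5H2 and 0.0466 for CCoAOMT3, and 14.6% of all tested genes passed. The time means of CCoAOMT3 spanned 2.01-fold, with the highest at 4 h and the lowest at 12 h, and those of CAld5H2 spanned 1.64-fold, with the highest at 12 h and the lowest at 2 h. The other 6 genes spanned 1.14-fold (CAD1) to 1.32-fold (CCoAOMT1), with adjusted p from 0.0529 (CCoAOMT1) to 0.387 (CAld5H1). CCoAOMT1, CCoAOMT2, CCR2 and COMT2 had, like CAld5H2, their lowest mean at 2 h and their highest at 12 h. Without the 4 libraries at 8 h, 4 of the 8 genes passed, CCoAOMT1 and CCoAOMT2 in addition (limma, adjusted p 0.0359 and 0.038). Of all tested genes 5526 then passed, against 3632 in the fit reported. With no filter on low values 0 of the 8 passed, beside 3258 of 31783 genes. With voom on recovered fragments 3 passed, CCoAOMT1 in addition, beside 3766 of all tested genes. When single libraries were left out, 0 to 3 genes passed. CCoAOMT3 and CAld5H2 each missed the threshold in 15 of 20 such fits, yet both passed without the 4 libraries at 8 h. These 2 calls thus depended on which libraries were used. Time after transfer cannot be told apart from time of day or age of the cutting in this design.

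From 2 to 4 h and from 12 to 24 h none of the 8 passed (background 0.0481 and 1.47% of tested genes). COMT2 was nearest in the first step, from 226 to 308 FPKM in the 4 libraries at 2 h to 291 to 367 FPKM at 4 h. Its log2 difference was 0.28 ± 0.11 (SE), with an unadjusted p of 0.0244 and an adjusted p of 0.379 in limma. From 12 to 24 h, CCoAOMT3 differed by 0.33 ± 0.25 and CAld5H2 by -0.21 ± 0.16 (log2, SE), opposite in sign to their changes before, with adjusted p of 0.534 and 0.542.

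Within the syringyl branch CAld5H1 stayed above CAld5H2 in all 20 libraries. The CAld5H1 to CAld5H2 ratio of FPKM was 1.84 to 2.40 in the 4 libraries at 2 h and 1.43 to 1.81 at 4 h. It was 1.14 to 2.02 at 8 h, 1.195 to 1.34 at 12 h and 1.44 to 1.68 at 24 h. All 4 ratios at 12 h were below all 4 at 4 h. The log2 difference was -0.395, with the smallest p that 70 arrangements allow (exact permutation test, two-sided, p = 0.0286). Adjusted over the 6 ratio tests it was 0.171, the lowest that a single p of this size among 6 can reach. A lone ratio between 12 and 4 h could therefore not have passed, and this limit also holds for the other ratios between these times. The phosphate comparisons of the ratios allow a smaller p (exact permutation test, smallest p 0.000257).

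The other ratios did not pass. CCoAOMT1 stood at 0.339 to 0.513 of CCoAOMT2 over the 20 libraries, with a log2 difference of 0.11 between 12 and 4 h (exact permutation test, adjusted p = 0.476). The summed hydroxylases stood at 0.101 to 0.227 of the summed CCoAOMT transcripts, with a log2 difference of 0.21 (exact permutation test, adjusted p = 0.343). The extremes of this last ratio were both at 8 h, 0.227 in replicate 2 at 10 µM and 0.101 in replicate 2 at 200 µM. In the comparison of phosphate levels the 3 log2 ratios differed by 0.04 to 0.14 (exact permutation test over 7776 arrangements, adjusted p from 0.254 to 0.742). The one exception was CCoAOMT1 to CCoAOMT2 without replicate 2 at 10 µM and 2 h, with a log2 difference of 0.20 (exact permutation test, adjusted p = 0.0324).

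**Figure D3:**
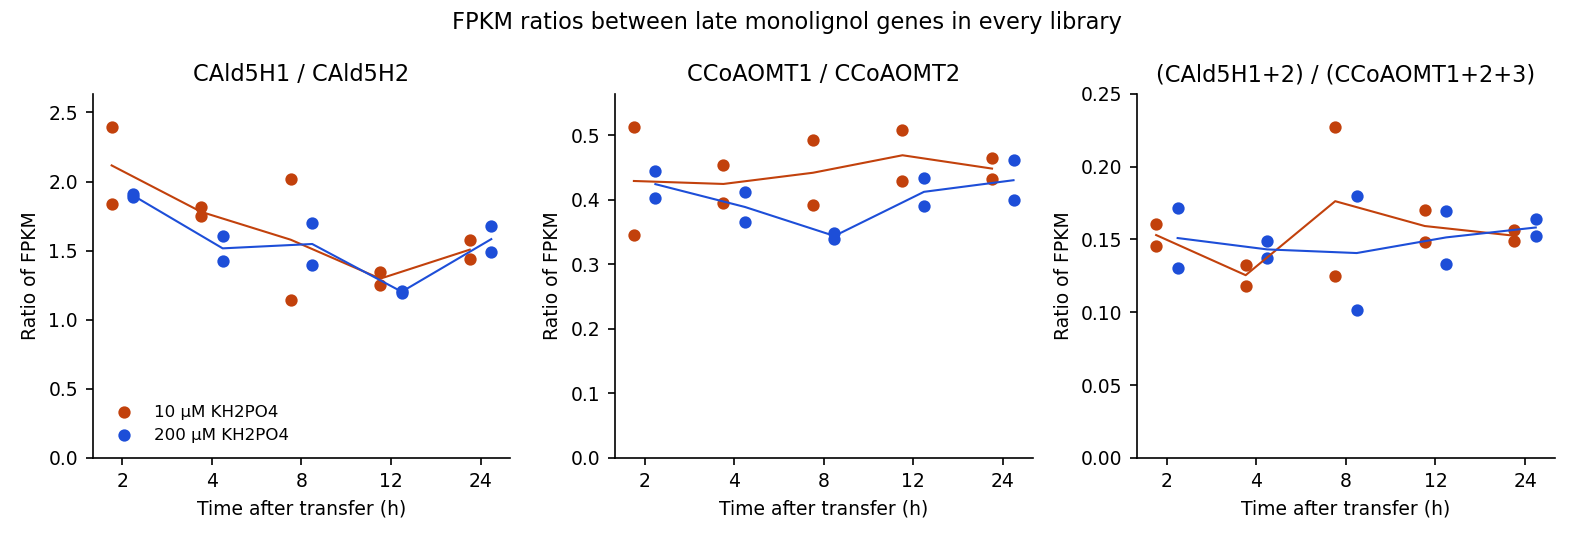
Ratios of FPKM between CAld5H1 and CAld5H2, between CCoAOMT1 and CCoAOMT2, and between the summed hydroxylases and summed CCoAOMT transcripts, on linear axes from 0, against time after transfer in h (times evenly spaced). Each point is 1 library (orange 10 µM, blue 200 µM KH2PO4) and lines join group means (n = 2); the first ratio was 1.195 to 1.34 at 12 h against 1.43 to 1.81 at 4 h.

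The study concerns rooting under low phosphorus, so the 8 transcripts were also compared between phosphate levels. At 10 µM, 7 of the 8 genes had mean differences below 0 from 200 µM over the 5 times, of -17.7 to -7.88%, but none passed the threshold over all genes (limma, smallest adjusted p = 0.249; 0.0441% of tested genes passed). Their log2 differences had a median of -0.17, beside 0.00 for all tested genes, and 48.7% of tested genes were below 0. An unadjusted p under 0.05 was reached by 5 of the 8, against 7.13% of tested genes. These 5 were CCoAOMT2, CCR2, COMT2, CAD1 and CAld5H2. All were measured in the same libraries and their levels were correlated, so such counts of genes are not independent observations. Without the 4 libraries at 8 h the log2 difference was -0.25 for CCoAOMT2 (limma, adjusted p = 0.31), -0.29 for CAld5H2 (0.223) and -0.19 for CAld5H1 (0.421), and none of the 8 passed. The count over all tested genes was 11, and 25 without replicate 1 at 10 µM and 8 h. With voom on recovered fragments, or with any library left out, 0 of the 8 passed. In bulk tissue, fewer cells of a type and less RNA per cell cannot be told apart.

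CCoAOMT2, the most abundant of the 8, had the largest difference. In order of time, its 2 libraries at 10 µM measured 255 and 280.1, 277 and 296, 349.6 and 257, 319.7 and 306, and 316 and 319.9 FPKM. At 200 µM they measured 322 and 276, 365 and 305, 378 and 425, 389 and 435, and 344 and 397 FPKM. The groups overlapped at 2 h alone. At 4, 8, 12 and 24 h, both libraries at 10 µM lay below both at 200 µM in 18, 12.7, 19.1 and 21.5% of tested genes. The share that did so at all these times was not counted. The mean log2 difference was -0.28 ± 0.07 (SE; 95% interval -0.42 to -0.14; limma, unadjusted p = 0.000709, adjusted p = 0.249). Its single-time differences were lowest at 8 h (-0.42) and 12 h (-0.39), and its adjusted p ranged from 0.0656 to 0.595 when 1 library was left out.

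For COMT2, CCR2 and CAD1 the largest differences were at 12 or 24 h. COMT2 measured 243 and 252 FPKM at 10 µM and 348 and 339 FPKM at 200 µM after 24 h, a log2 difference of -0.47 ± 0.16 (SE), and it was 0.05 ± 0.16 at 2 h. In limma the unadjusted p at 24 h was 0.0089 and the adjusted p 0.892. At 10 µM its level at 24 h was the lowest of the times after 2 h, below both libraries at 4, 8 and 12 h. CCR2 had 165 and 168 FPKM at 10 µM against 194 and 221 FPKM at 200 µM after 24 h (log2 -0.31 ± 0.13, SE; limma, unadjusted p = 0.0338, adjusted p = 0.892), and a difference of -0.05 ± 0.13 at 2 h. CAD1 measured 174 and 167 FPKM at 10 µM against 194 and 198 FPKM at 200 µM after 12 h. At 24 h its groups met at 199 FPKM, the upper library at 10 µM and the lower at 200 µM. Whether a difference varied with time was tested directly by the interaction, in which none of the 8 passed (limma, every adjusted p = 1; smallest unadjusted p 0.194, for COMT2). None of all tested genes passed this test either, nor with voom, while 3.01% had an unadjusted p under 0.05. Without replicate 1 at 10 µM and 8 h, 31 of all tested genes passed it, and with no filter on low values 1 did, in both cases with 0 of the 8 among them.

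**Figure D4:**
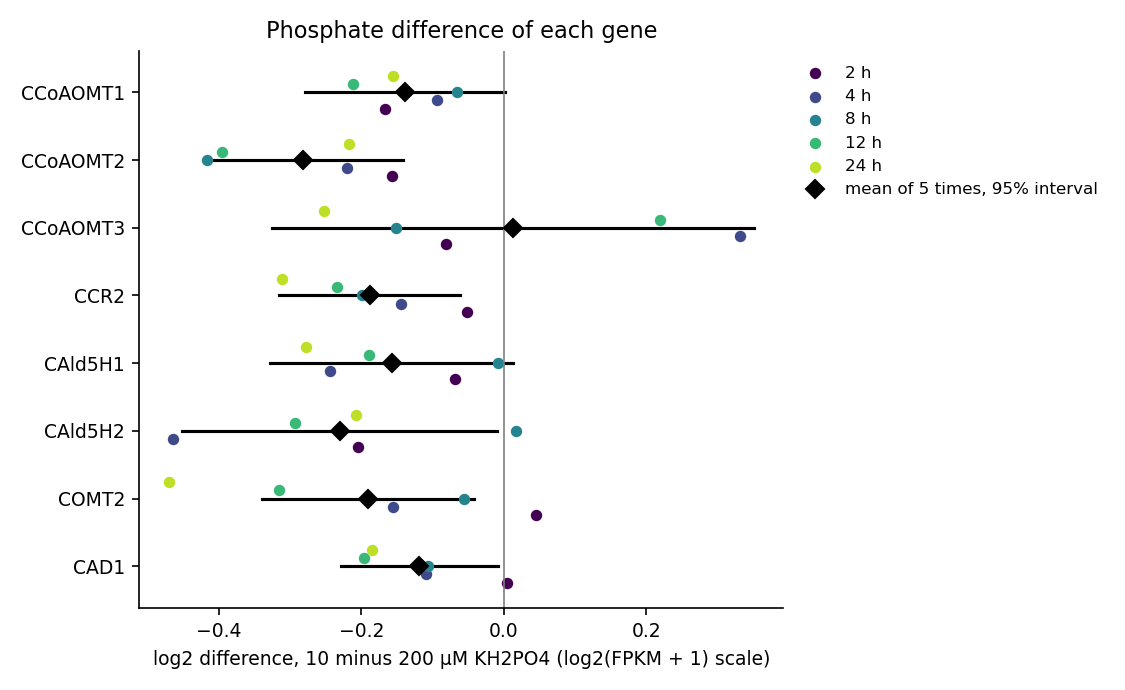
Log2 difference between 10 and 200 µM KH2PO4 for each gene, on the log2(FPKM + 1) scale. Diamonds and bars give the mean of the 5 times with its 95% interval from limma, and coloured points the difference at each time; 7 of the 8 diamonds lie below 0, and CCoAOMT3 lies at 0.01 with an interval from -0.33 to 0.35.

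Of the hydroxylases, CAld5H2 was lower at 10 µM in both libraries at 2, 4 and 12 h, for instance 19.2 and 21.5 against 29.6 and 27.1 FPKM at 4 h (log2 -0.46 ± 0.23, SE), but not at 8 or 24 h. CAld5H1 and CCoAOMT1 had mean log2 differences of -0.16 ± 0.08 and -0.14 ± 0.07 (SE), with 95% intervals that reached 0.01 and 0.00. CCoAOMT3 had a mean log2 difference of 0.01 ± 0.16 (SE), which took either sign when 1 library was left out (-0.10 to 0.13). Its log2 difference was 0.33 at 4 h and 0.22 at 12 h, but -0.08, -0.15 and -0.25 at 2, 8 and 24 h. At 12 h it was the exception in sign. Both of its libraries at 10 µM (20.2 and 19.1 FPKM) then exceeded both at 200 µM (15.2 and 18.4 FPKM), while the other 7 genes were lower at 10 µM in both libraries. Both below both, as in these 7 genes at 12 h, held for 19.1% of tested genes, and both above both for 18.8%.

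Overlap was also counted at each time. The number of genes with both libraries at 10 µM below both at 200 µM was, in order of time, 1, 4, 3, 7 and 5, against 9.63, 18, 12.7, 19.1 and 21.5% of tested genes. At 2 h same-numbered libraries deviated together, so replicates of a group were spread alike at both levels. The 8-gene sum was then 1144 (10 µM) and 1238 FPKM (200 µM) in replicate 1, and 1003 and 1009 FPKM in replicate 2. The labels do not say whether these numbers mark a pairing. Of the 40 combinations of gene and time, 35 had a log2 difference below 0 (6, 7, 7, 7 and 8 genes in order of time, beside 49.8, 50.8, 47.7, 47.2 and 50.6% of tested genes), and CCoAOMT1, CCoAOMT2, CCR2 and CAld5H1 were below 0 at all 5 times, as were 5.05% of tested genes. The genes share libraries and most of them varied together, so these combinations are not independent observations. At single times 0 of the 8 and 0 of all tested genes passed the threshold in limma. Without replicate 1 at 10 µM and 8 h, 352 of all tested genes passed at 8 h, and without all 4 libraries at 8 h, 11 passed at 12 h, with 0 of the 8 among them. An unadjusted p under 0.05 was reached by 0 of the 8 at 2 and 4 h, by 1 at 8 h and 12 h (CCoAOMT2) and by 2 at 24 h (COMT2 and CCR2), beside 1.97, 3.59, 5.96, 4.54 and 5.1% of tested genes at 2, 4, 8, 12 and 24 h. With voom 0 of the 8 passed at any time, and 4 of all tested genes did, at 24 h.

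Summed over the 8 genes, FPKM in order of time was 1144 and 1003, 1152 and 1115, 1242 and 1119, 1245 and 1147, and 1116 and 1189 at 10 µM. At 200 µM the sums were 1238 and 1009, 1330.0 and 1195, 1277 and 1396, 1420.5 and 1493, and 1356 and 1446 FPKM. The groups overlapped at 2 h. CCoAOMT2 and COMT2, the most abundant genes, weigh most in these sums, which in large part repeat their values, and the pair at 10 µM and 8 h is the uneven one.

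Over the 10 group means, 7 of the 8 genes had positive correlations with each other. Of the 28 pairs of genes, 14 had a Pearson r above 0.7, and the highest was 0.934 (CCoAOMT1 and CAld5H2). All 7 negative values involved CCoAOMT3, from -0.277 with COMT2 to -0.88 with CAld5H2. These are descriptions over 10 means that share one time course and, at 8 h, an uneven pair of libraries, and they were not computed without 8 h. The 2 other genes whose profile was most like the mean of the 8 standardised profiles were Potri.003G129400 (r = 0.967 over 10 means, 3.01 FPKM on average) and Potri.019G131300 (r = 0.953, 16.4 FPKM), which the table does not describe. CCR2 was the member closest to that mean (r = 0.973), and CCoAOMT3 had r = -0.581. Each member is itself part of that mean, which raises its r, while the 2 other genes are not.

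For context, 14 genes taken for the earlier steps of the pathway were measured in the same fit. The steps are those of phenylalanine ammonia-lyase and of the hydroxylases, ligases, transferases and esterases up to caffeoyl-CoA. The 14 genes were taken from general knowledge of P. trichocarpa locus names and were unchecked against an annotation. Their mean levels ranged from 12.6 to 322 FPKM. All 14 had mean log2 differences below 0 between 10 and 200 µM, from -0.31 to -0.035 with a median of -0.16. Of all tested genes, 48.7% were below 0 and 0.0441% passed the threshold for this difference. Only Potri.003G188500, named here after its value was seen, passed (log2 -0.31 ± 0.05, SE; limma, adjusted p = 0.0221). It missed the threshold in 12 of the 20 fits without 1 library and without the 4 libraries at 8 h (adjusted p = 0.141), and its fit without a variance trend gave 0.0623. With time, 7 of the 14 varied, beside 14.6% of all tested genes. Between 4 and 12 h 3 passed the threshold as higher and 0 as lower, beside 3.18% and 4.01% of all tested genes. By sign alone, 9 of the 14 had log2 changes above 0 and 5 below 0, beside 47.9% of all tested genes below 0.

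The secondary wall cellulose synthases, which mark wood-forming cells, were low. The 5 genes, taken in the same unchecked way, averaged 4.56 to 14.5 FPKM, each above 2.4 FPKM in every library, so all these markers were detected. Their mean log2 differences between phosphate levels were 0.00 to 0.07 and none passed. Their summed FPKM overlapped between the levels at every time but 24 h, when it was 35.7 to 39.3 at 10 µM and 41 to 53.2 at 200 µM. At 4, 8 and 12 h all 5 had log2 differences above 0 (median 0.19 at 12 h), and at 24 h all 5 were below 0. Of all tested genes, 50.8, 47.7, 47.2 and 50.6% were below 0 at 4, 8, 12 and 24 h. From 4 to 12 h, 5 of 5 had log2 changes below 0 (-0.46 to -0.17), beside 47.9% of tested genes, and none passed. Genes measured in the same libraries are not independent observations. At 2 h the sum was 73.6 (10 µM) and 72.2 FPKM (200 µM) in replicate 1 and 31.5 and 31.1 FPKM in replicate 2. CCoAOMT3 was likewise higher in replicate 1 at both levels, and so were CCoAOMT1, CCR2, COMT2 and CAD1. CAld5H1 was lower in replicate 1 at both levels, and CCoAOMT2 and CAld5H2 differed in direction between the levels. At 12 h and 10 µM the sum ran from 28.1 to 49.5 FPKM, while CCoAOMT3 measured 20.2 and 19.1 FPKM. The part of wood-forming cells in the results on the 8 genes was not tested.

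**Figure D5:**
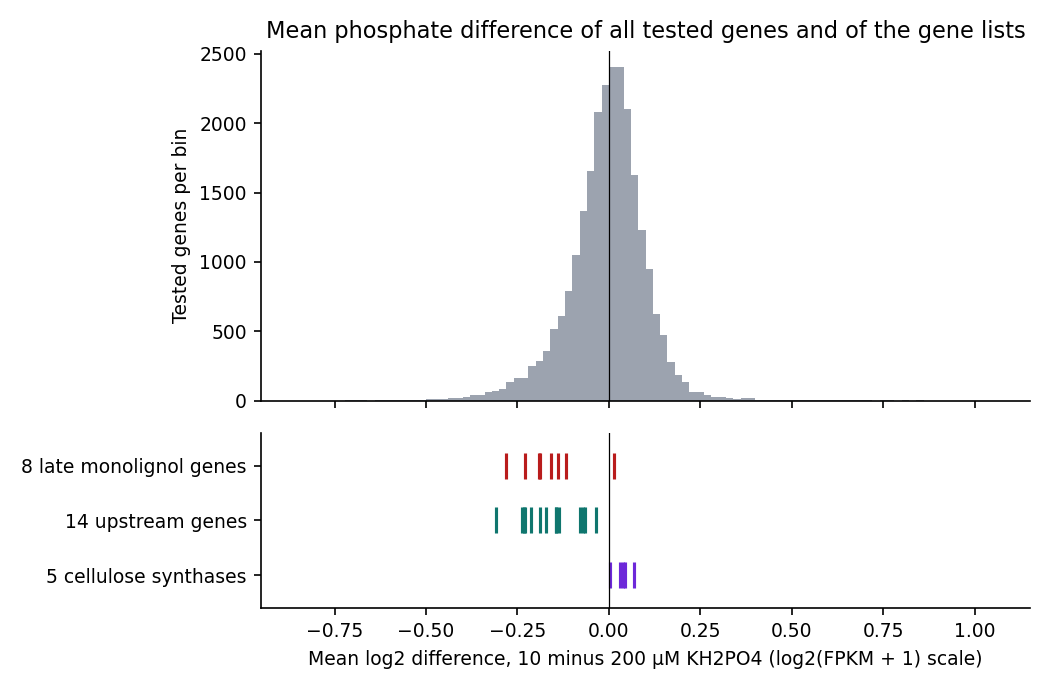
Above, a histogram of the mean log2 difference between 10 and 200 µM KH2PO4 (log2(FPKM + 1) scale) of all 24934 tested genes in bins of 0.02. Below, a tick for each late monolignol gene, each of the 14 upstream genes and each of the 5 cellulose synthases; 7 of 8, 14 of 14 and 0 of 5 ticks lie below 0.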

How the data were processed

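The deposited table holds FPKM values per gene for 20 libraries. Per the submitters' processing notes, HISAT2 2.1.0 and Bowtie2 2.2.3 were used, in roles that are not given. Not given in the sources used here are the genome build, the annotation and the program that computed FPKM. The authors' FPKM values are relative to each library's total, so a few very abundant genes can lower all others.

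FPKM steps gave whole fragments (within 0.06) for 100% of the 24934 tested genes, with a median of 253 fragments. Values were tested as log2(FPKM + 1) with limma 3.58.1 in R 4.3.3 (cell means of all 10 groups, variance trend), keeping genes with at least 1 FPKM in at least 2 libraries. This scale understates changes of low genes. In 11 comparisons, p-values were Benjamini-Hochberg adjusted over all tested genes, with a threshold of 0.05. Ratios were tested by exact permutation, two-sided, within times for phosphate, and adjusted over 6. A 95% interval reached a median of 0.158 to either side of the mean phosphate difference and 0.353 at a single time (log2). Alternatives were pseudocount, filters, scaling, variance trend, voom on fragments, a replicate block and left-out libraries. Scripts were tested on simulated data. All 8 genes are named. The genes and the pathway lists were chosen with earlier results of these data known. The 2 genes of most similar profile were taken by Pearson r over the 10 group means. No sequences are shown, as none were given.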

Additional observations from a re-analysis of the deposited data

How the results depend on the processing

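The number of the 8 genes past the threshold for variation with time was 0 with no filter on low values, 1 with no variance trend, 3 with voom and 4 without the 8 h libraries, against 2 in the fit reported, and 0 to 3 when single libraries were left out. Between 4 and 12 h it was 1 with no filter and 1 with no variance trend, and 0 to 3 with libraries left out. For the phosphate comparisons and the other times the count was 0 under every alternative run. The summed hydroxylase to CCoAOMT log2 ratio between phosphate levels was -0.0333 without the 8 h libraries and -0.0489 to 0.1238 with single libraries left out. That of CAld5H1 to CAld5H2 was -0.0038 to 0.1613 and that of CCoAOMT1 to CCoAOMT2 0.0851 to 0.1999. The cause of these changes was not tested.

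Over all tested genes, 3632 varied with time, against 5526 without the 8 h libraries. The counts between 4 and 12 h were 1791, and 3459 in a fit on those libraries alone; between 12 and 24 h 366, 1032 without the 8 h libraries and 1811; between 2 and 4 h 12, 100 and 1. Same-numbered libraries deviated together at 2 h (r = 0.504) but not at the other times (-0.238 to 0.075), and the labels do not say whether the numbers mark a pairing, so they were not taken as pairs. With a replicate block the counts of the 8 genes were the same, 2 for variation with time and 2 between 4 and 12 h, but CCoAOMT1 passed for variation with time (adjusted p = 0.041) and CCoAOMT3 did not (0.0512). With 2 libraries a group, intervals at single times are wide. A fit without 1 library assumes that the lone library left in its group varies like the other groups. Quantile normalization turned the sign of 4 small time differences that did not pass, those of CAD1 from 2 to 4 h, COMT2 from 4 to 12 h, and CCoAOMT2 and CCR2 from 12 to 24 h.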
